A study of Mus musculus with 9 samples.

Results

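The cytosolic ribosomal protein genes encode the proteins of the ribosome that works in the cytoplasm. They were taken as the protein-coding genes of the RefSeq annotation whose symbols are Rpl or Rps followed by a number, with Rplp0, Rplp1, Rplp2 and Rpsa added. This rule found 85 of 21887 protein-coding genes on chromosomes 1 to 19, X and Y. It uses names only and no measured value. The study mapped where GR, the receptor for glucocorticoid hormones and itself a DNA-binding protein, sits in the genome of granulosa cells, the somatic cells of the ovarian follicle. The method was ChIP-seq, the sequencing of DNA pulled down with an antibody. All cells came from 21-day-old wildtype CBA x C57BL/6 F1 females that had received 5 IU of eCG (named PMSG in the sample titles), a hormone that makes follicles grow. At 44 h after eCG they were collected either at once (0 h) or 6 h after 5 IU of hCG, which replaces the surge of luteinising hormone (LH). Used here are the deposited peak lists of 4 GR libraries, 2 per time, and of 1 library from 0 h for H3K27ac, a histone acetylation found at promoters and enhancers in use. No 6 h group without hCG is among these lists, so hCG and the later time cannot be told apart. The labels do not say whether the numbered replicates came from separate mice, so a p-value here measures the spread between libraries, which may be technical.

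Each cytosolic ribosome joins a small subunit, which reads the messenger RNA (proteins named Rps), to a large subunit, which forms the peptide bonds (Rpl). Nearly every ribosomal protein is used in the same number of copies, and growing or hormone-producing cells transcribe these genes at a high rate from short promoters. Most of their messenger RNAs start with a run of pyrimidines (C and T in the DNA), the TOP motif, through which the mTOR pathway controls their translation. The LH surge turns granulosa cells from dividing into luteinising, progesterone-producing cells. Glucocorticoids are known to alter protein synthesis in many tissues.

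The promoters at which the loci described below lay are shown first, because GR was mapped to them and they differ in the letters found there. RefSeq (build GRCm38.p6, on mm10 coordinates) gave a promoter of 300 bases, 250 before and 50 after the gene start, for 65 of the 85 genes. The other 20 were not searched. Printed below are the 200 bases before the start, 5′ to 3′ on the strand of the gene, for 4 of the most strongly bound members (Rpl5, Rpl10, Rpl18 and Rpl7l1), for Rps6, for a member higher (Rps16) and a member lower (Rps27l) at 6 h, and for Rpl39l, which had no GR peak. Capitals mark matches, on either strand, to the motifs searched, which are named after the sequences.
Rpl5 (chr5:107900328-107900527, plus strand): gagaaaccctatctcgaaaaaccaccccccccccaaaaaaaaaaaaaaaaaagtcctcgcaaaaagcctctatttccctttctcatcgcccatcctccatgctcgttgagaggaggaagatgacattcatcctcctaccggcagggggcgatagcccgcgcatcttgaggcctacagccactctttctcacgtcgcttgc
Rpl10 (chrX:74270616-74270815, plus strand): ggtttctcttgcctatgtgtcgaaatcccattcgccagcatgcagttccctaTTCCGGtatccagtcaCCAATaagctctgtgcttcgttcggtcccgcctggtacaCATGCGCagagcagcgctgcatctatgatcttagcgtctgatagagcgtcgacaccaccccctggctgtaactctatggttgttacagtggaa
Rpl18 (chr7:45717871-45718070, plus strand): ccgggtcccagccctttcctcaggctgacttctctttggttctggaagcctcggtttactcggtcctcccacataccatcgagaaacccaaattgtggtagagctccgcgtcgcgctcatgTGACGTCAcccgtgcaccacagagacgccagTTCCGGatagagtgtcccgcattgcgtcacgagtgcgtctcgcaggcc
Rpl7l1 (chr17:46782657-46782856, minus strand): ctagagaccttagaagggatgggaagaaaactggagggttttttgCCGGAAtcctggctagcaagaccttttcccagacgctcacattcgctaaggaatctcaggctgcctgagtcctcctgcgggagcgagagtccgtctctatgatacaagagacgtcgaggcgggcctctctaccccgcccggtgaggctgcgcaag
Rps6 (chr4:86857368-86857567, minus strand): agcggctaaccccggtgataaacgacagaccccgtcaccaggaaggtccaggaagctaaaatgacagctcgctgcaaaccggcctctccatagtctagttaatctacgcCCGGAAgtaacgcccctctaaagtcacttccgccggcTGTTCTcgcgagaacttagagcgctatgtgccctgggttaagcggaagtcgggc
Rps16 (chr7:28350489-28350688, plus strand): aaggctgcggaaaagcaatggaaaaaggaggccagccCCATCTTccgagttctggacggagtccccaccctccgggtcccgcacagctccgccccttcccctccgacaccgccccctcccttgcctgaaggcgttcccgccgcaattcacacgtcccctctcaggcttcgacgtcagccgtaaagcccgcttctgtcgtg
Rps27l (chr9:66945886-66946085, plus strand): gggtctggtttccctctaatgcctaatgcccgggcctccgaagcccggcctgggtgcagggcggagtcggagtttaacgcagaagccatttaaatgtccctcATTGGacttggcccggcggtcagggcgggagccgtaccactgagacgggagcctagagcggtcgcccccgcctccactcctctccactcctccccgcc
Rpl39l (chr16:10170028-10170227, plus strand): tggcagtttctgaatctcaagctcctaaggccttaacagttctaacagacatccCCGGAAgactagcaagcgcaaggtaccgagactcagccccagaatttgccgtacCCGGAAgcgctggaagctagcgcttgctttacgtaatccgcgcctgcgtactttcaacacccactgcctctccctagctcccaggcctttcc

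Motifs were sought on both strands of the 300 bases. They were AGAACA, the hexamer of the GR response element, the same hexamer facing its own reverse complement across any 3 bases, CCGGAA (the core bound by ETS factors), AAGATGG (YY1), GCGCATG (NRF1), CCAAT (bound by NF-Y), TATAAA (the TATA box), TGACTCA (AP-1), TGACGTCA (the cyclic AMP response element) and CTTCCTTT, a pyrimidine octamer that can lie inside a TOP run. The hexamer is part of the spaced pair, so the first search also finds the second. A locus called in all 4 GR libraries overlapped 58 of the 65 promoters. These are called bound, a word used here for peak calls only. For comparison there were 3523 promoters of other genes under such a locus and 17492 promoters of protein-coding genes in all. Matches describe letters and not bound sites.

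The GR hexamer was found in 8 of the 58 bound ribosomal protein promoters (13.8%), in 10.4% of the other bound promoters and in 16.4% of all promoters. Its spaced, inverted pair was in none of the 58, none of the 3523 and 1 of the 17492. The ETS core was the most frequent of the motifs searched in the bound members, in 29 of 58 (50%), against 34.7% of other bound promoters and 19.1% of all. Rpl10, Rpl18, Rpl7l1 and Rps6 carry it in the sequences above, at -148, -48, -155 and -91 bases from the start. Rpl39l, without a GR peak, also carries it, at -146 and -92. The 200 bases of Rpl5 printed above hold none of these motifs. The whole promoter searched is longer, and that of Rpl5 has GCGCATG outside the printed bases. AAGATGG was in 9 of 58 (15.5%, against 8.63% and 6.35%), among them Rps16 at -163. TGACGTCA was in 5 of 58 (8.62%, against 4.77% and 2.33%), among them Rpl18 at -79. The octamer CTTCCTTT was in 6 of 58 (10.3%, against 2.19% and 3.27%). CCAAT was in 19 of 58 (32.8%, against 40.5% and 39.2%), GCGCATG in 7 (12.1%, against 9.17% and 4.88%), TATAAA in 6 (10.3%, against 6.78% and 13.3%) and TGACTCA in 1 (1.72%, against 3.01% and 4.56%). The median GC content of the bound members was 58.7%, that of other bound promoters 63% and that of all promoters 56.3%. The median ratio of observed to expected CpG (C followed by G) was 0.917, 0.849 and 0.577 in the same order. CCGGAA, TGACGTCA and GCGCATG each contain a CpG, and the part of composition in their shares was not tested.

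A run of 8 or more pyrimidines inside the 30 bases around the RefSeq start was present in 24 of the 58 bound members (41.4%), in 11.1% of other bound promoters and in 11.7% of all. Only the part of a run inside these 30 bases was counted, so a run that crosses an edge can be longer. The median longest run was 6 bases in the bound members and 4 in both comparison sets. RefSeq starts can be off by some bases, so a start without a run does not show that the transcript lacks one. The next sequences run from 15 bases before to 15 bases from the start, on the strand of the gene. The longest pyrimidine run inside them is in capitals. They show the 2 longest counted runs of the family, Rpl7a with 21 bases and Rpl27a with 19. Counted runs of 10 bases (Rpl18 and Rps6) and short counted runs (Rpl5 and Rpl7l1) are also shown. The run of Rpl27a reaches the last base shown, so its full length and its rank below Rpl7a are not known. The run of Rpl5 is cut at the first base shown. It continues upstream in the sequence printed earlier, and counted whole it would pass the limit of 8 bases.
Rpl7a (chr2:26910792-26910821, plus strand): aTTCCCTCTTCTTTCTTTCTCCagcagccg
Rpl27a (chr7:109519180-109519209, plus strand): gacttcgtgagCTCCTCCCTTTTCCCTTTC
Rpl18 (chr7:45718056-45718085, plus strand): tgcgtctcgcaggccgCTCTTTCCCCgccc
Rps6 (chr4:86857353-86857382, minus strand): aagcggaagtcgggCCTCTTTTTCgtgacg
Rpl5 (chr5:107900513-107900542, plus strand): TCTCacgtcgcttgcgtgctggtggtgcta
Rpl7l1 (chr17:46782642-46782671, minus strand): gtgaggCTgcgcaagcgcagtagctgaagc

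GR peaks were called at almost the whole family, before and after hCG. Whether a peak marks specific binding of GR was not tested, and the control used in peak calling is not known. With a window of the gene span and 2 kb to each side, 79 of the 85 genes (92.9%) had a locus called in all 4 GR libraries, where 23.9% of all protein-coding genes had one. A locus is a set of peaks of the 4 lists that overlap by 1 bp or more. By library, 82 and 81 members had a peak at 0 h and 82 and 79 at 6 h, against 39.1%, 36.7%, 43.4% and 30.1% of all genes in the same order. The means were 81.5 ± 0.707 at 0 h and 80.5 ± 2.12 at 6 h (SD, n = 2 each). The difference of -1 gene lay within the spread of the libraries (exact permutation test, two-sided, p = 1, where the smallest p that 2 against 2 libraries allow is 0.333). Without the second 6 h library it was 0.5 gene in the other direction. With each list cut to its strongest peaks, as many as the shortest list holds, it was -4.5 genes (81.5 at 0 h and 77 at 6 h).

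Other properties of these genes were set beside that share. Ribosomal protein genes are short, with a median span of 3175 bp against 17169 bp for all genes. Of the 3109 other genes that were no longer than the longest member (11774 bp) and had H3K27ac within 1 kb of an end, 45.6% had a locus in all 4 libraries. Of the 81 members with H3K27ac there, 78 did. Another protein-coding gene reached into the window of 44 members, and among the other 41 members the count was 39. These subsets were chosen after the values were seen. Of the loci in these windows, 1 lay in the windows of 2 members.

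**Figure D1:**
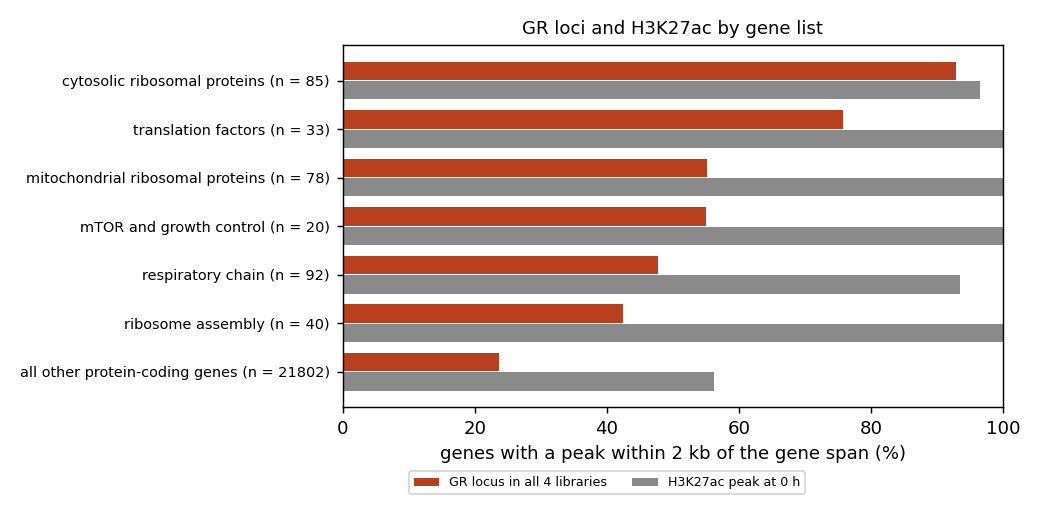
Percentage of genes with a GR locus in all 4 libraries (red) and with an H3K27ac peak at 0 h (grey) within 2 kb of the gene span, for cytosolic ribosomal proteins, comparison lists and all other protein-coding genes, n in brackets. The red bar is 92.9% for the cytosolic ribosomal proteins and 23.6% for all other genes, while the grey bars of the lists are between 93.5% and 100%.

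Loci of the family were also among the stronger of those called at both times. The measure is the fold enrichment that the authors' peak caller gave, a ratio over the background of the same library, which describes peaks within a list and is not comparable between lists by itself. For the strongest shared locus of each of the 79 members, the median fold enrichment was 10.9 and 11.6 in the 0 h libraries and 12.5 and 7.86 in the 6 h libraries. Over all 5012 loci called in all 4 libraries it was 8.69, 8.81, 9.73 and 6.88. To compare libraries, each of the 5012 loci was ranked within each library. The median member stood at percentile 75.5 and 79.1 at 0 h and 77.7 and 68.2 at 6 h, where loci within 1 kb of a gene end had medians of 51.9, 51.0, 50.2 and 48.1. The second 6 h library gave the family its lowest rank. The mean of the medians was 77.3 ± 2.49 at 0 h and 73.0 ± 6.65 at 6 h (SD, n = 2 each), a difference of -4.34 points that lay within the spread of the 6 h libraries (exact permutation test, two-sided, p = 0.667). Without the second 6 h library the difference was 0.471 points.

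**Figure D2:**
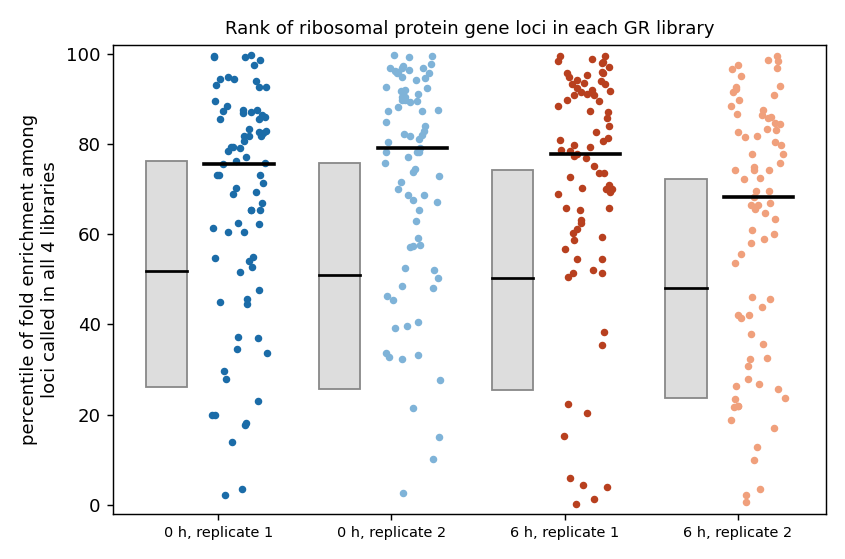
Percentile of fold enrichment among the 5012 loci called in all 4 libraries, by GR library; each point is the strongest shared locus of 1 of the 79 genes and the long bar their median, and the grey box spans the 25th to 75th percentile of shared loci within 1 kb of a gene end with its median. The medians of the genes are 75.5, 79.1, 77.7 and 68.2, all above the grey medians, and single genes reach down to the lowest ranks.

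Members kept much of their order from library to library. Over the 79 loci, Spearman's rho of fold enrichment was 0.75 between the 0 h libraries, 0.83 between the 6 h libraries and 0.63 to 0.75 across times, a description of sites that share libraries and depth. The same values over all 5012 loci were 0.69, 0.66 and 0.55 to 0.61. Between gene length and strength, rho was 0.07 over the 79 genes.

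By mean percentile over all peaks of each list, the highest member was Rpl5, which with Rpl11 binds the 5S ribosomal RNA and can stabilise p53 when ribosome assembly fails. The Rpl5 peak had fold enrichments of 22.9 and 26.7 at 0 h and 30 and 18.5 at 6 h, so the times overlapped. Its partner Rpl11 had 13.4, 13.7, 16.3 and 8.20 in the same order. Rpl10, a protein added late in the assembly of the large subunit, had 24.2 and 22.7 at 0 h and 22.7 and 17.6 at 6 h. Those mean percentiles were 99.2 for Rpl5 and 98.8 for Rpl10. Rpl18 of the large subunit had 29.7 and 30.7 at 0 h and 24.25 and 14.5 at 6 h, with summits just before its RefSeq start. By fold enrichment itself Rpl18 was thus above Rpl5 in both 0 h libraries and below it in both 6 h libraries. A weaker shared locus, at the low-coordinate end of the annotated span, had 11.65, 8.81, 9.87 and 6.30. Rpl36 had 20.1, 16.8, 21.9 and 14.4, and Rpl36a 15.7, 18.9, 17 and 15.5. Rps3a1, a small-subunit protein, had 15.1, 13.7, 19.7 and 11.3. Another protein-coding gene reached into the windows of Rpl5, Rpl10, Rpl18, Rpl36, Rpl36a and Rpl7l1, but not into those of Rps3a1 and Rps14. To which gene a peak belongs was not tested.

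Genes of the ribosomal stalk, where elongation factors dock, ranked lower in the median. Rplp0, its base, had 11.96 and 12.1 at 0 h and 14.02 and 5.89 at 6 h. Rplp1 had 6.56 and 9.51 against 5.91 and 5.95, and Rplp2 8.82 and 9.001 against 8.87 and 4.97. The median percentile of the 3 stalk genes among shared loci was 51.6 and 59.2 at 0 h and 38.3 and 30.7 at 6 h.

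Both subunits were represented. A locus in all 4 libraries was present at 30 of 31 small-subunit genes and 42 of 43 large-subunit genes, with paralogues and the stalk counted apart. Median fold enrichments were 10.4, 11.2, 12.0 and 7.35 for the small subunit and 10.9, 11.7, 12.6 and 8.26 for the large. Rps6, the phosphorylation target of the S6 kinases, had 14.7 and 13.2 at 0 h and 16.8 and 7.86 at 6 h. Rpsa, a small-subunit protein also known as a laminin receptor, had 9.06, 11.6, 10.3 and 6.53. Rps27a, made as a fusion with ubiquitin, had 10.3, 10.05, 11.5 and 7.03. In each of these the second 6 h library was the lowest, and it was below the first 6 h library at 75 of the 79 loci.

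Fau, a gene outside the naming rule whose product carries a ribosomal protein fused to a ubiquitin-like protein, was bound too. It had fold enrichments of 8.24 and 8.40 at 0 h and 10.99 and 6.73 at 6 h.

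**Figure D3:**
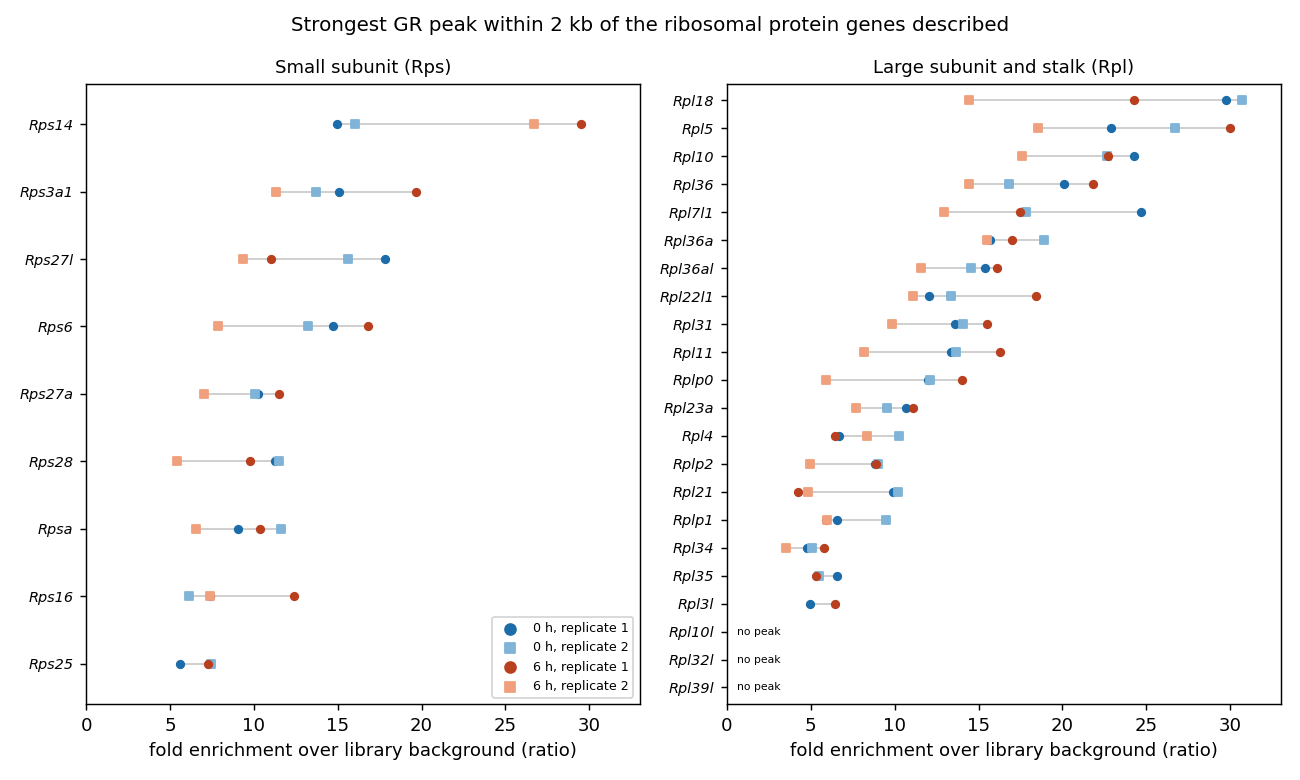
Fold enrichment (ratio over library background) of the strongest GR peak within 2 kb of the ribosomal protein genes described in the text, small subunit on the left and large subunit with stalk on the right, 1 point per library and a grey line from the lowest to the highest. Among them Rps14 is the gene whose 6 h points lie farthest above its 0 h points, and Rpl10l, Rpl32l and Rpl39l have no peak.

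Only paralogues lacked a GR peak altogether. Rpl10l and Rpl39l, which are known for expression in the testis, and Rpl32l had no GR peak in any of the 4 lists and no H3K27ac peak in the window. Rpl3l, known from skeletal and heart muscle, had a weak peak in 1 library of each time (4.96 at 0 h and 6.45 at 6 h), and that locus lay 352 bp outside the gene. The other 4 paralogues were bound in all 4 libraries. Rpl22l1 had 12.03 and 13.3 at 0 h and 18.4 and 11.1 at 6 h, and Rpl36al had 15.4, 14.6, 16.1 and 11.6. Rpl7l1 had 24.7 and 17.85 against 17.5 and 12.95, and Rps27l, a p53 target, had 17.8 and 15.6 against 11.03 and 9.37. Where no peak is listed, GR may still be present below the authors' threshold.

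Rpl35 and Rps25 were called in 3 of the 4 libraries and not in the second 6 h library. Rpl35 had 6.55, 5.51 and 5.31 in the other libraries and Rps25 5.58, 7.42 and 7.25. Rpl34 was the weakest member called throughout, with 4.78 and 5.05 at 0 h and 5.77 and 3.52 at 6 h.

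GR summits lay at the gene starts. For the 59 members with a RefSeq start and a shared locus, the median summit of the 4 libraries lay 43.5 bp into the gene, with quartiles at 15.5 and 89.5 bp. It was within 250 bp of a start in 59 of 59 and within 100 bp in 45. The median offset of single libraries ran from 39 to 63 bp. Of 4256 other genes with a shared locus, 71.2% had the summit within 250 bp and 42.3% within 100 bp, with quartiles at -107 and 126 bp. These other genes were not matched for length, and members are short (median span 3175 bp, against 17169 bp for all genes). A longer gene has more room for a locus away from its start. Within 250 bp, 12 of 59 members had the summit before the start (20.3%), and 34.1% of other genes did. The 4 summits of a member lay 64 bp apart in the median. For Rps24 they were at 31, 33, 34 and 37 bp and for Rpl9 at 85, 86, 79 and 81 bp, so they fell in nearly the same place in all libraries. For Rpl27a they were at -16, 29, -268 and -202 bp, the widest spread of the family, with both 6 h summits farther upstream.

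**Figure D4:**
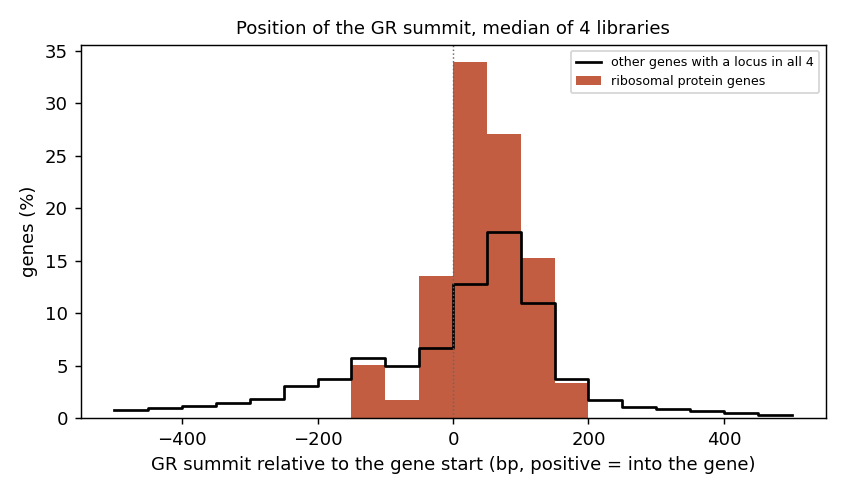
Distance of the GR summit (median of 4 libraries) from the nearest RefSeq start in bp, positive into the gene, as a percentage of genes in bins of 50 bp; red bars are the 59 ribosomal protein genes and the black line 4256 other genes with a shared locus, some of which lie beyond the axis. The red bars gather just after the start, around the median of 43.5 bp.

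Acetylated chromatin was already present at most of these genes before hCG. An H3K27ac peak at 0 h lay in the window of 82 of 85 members, against 56.4% of all genes, and the 3 without one are the 3 without a GR peak. Each of the 79 strongest shared loci overlapped an H3K27ac peak, and in 78 the GR summit lay inside it. Over all 3840 shared loci within 1 kb of a gene end, the summit lay inside in 95.3%. The widest H3K27ac peak at a member locus had a median of 1560 bp (820 to 3999 bp), against 1435 bp at shared loci near gene ends. Only Rps14 had its summit outside.

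The next comparison asked whether binding at these genes moved with hCG. In 2 of the 79 members called in all libraries, the strongest fold enrichment in the window was higher in both 6 h libraries than in both 0 h libraries, and in 12 it was lower. The shares over all 5442 genes with a peak in each library were 11.3% higher and 19.9% lower. For the strongest shared locus alone the counts were also 2 (2.53%) and 12 (15.2%), beside 9.16% and 20.8% of all 5012 shared loci and 5.26% and 21.1% of those within 1 kb of a gene end. Ranks set aside the overall strength of a library. By rank, 14 of 79 members (17.7%) were higher in both 6 h libraries and 20 (25.3%) lower, beside 19.1% and 22.1% of all shared loci and 15.8% and 23.2% of those near gene ends. These shares by rank were close to the background. The 6 h libraries departed from 0 h in opposite ways. The first 6 h library exceeded both 0 h libraries at 48 of the 79 loci and the second was below both at 68, and over all 5012 loci this was so in 50.1% and 73.3%.

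**Figure D5:**
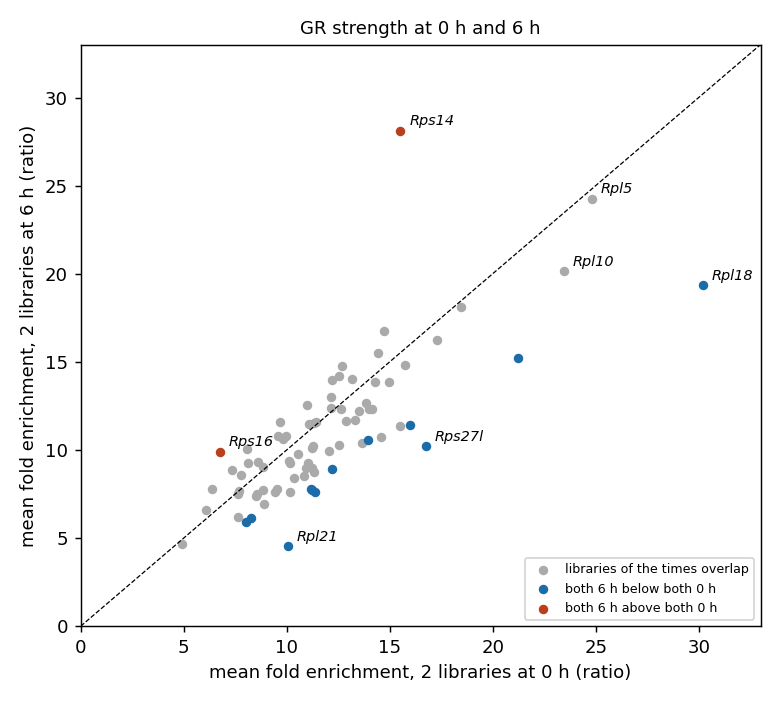
Mean fold enrichment (ratio) of the strongest GR peak in the window, 2 libraries at 0 h on the horizontal and 2 at 6 h on the vertical axis, for the 79 members called in all libraries; the dashed line marks equal values. Rps14 and Rps16 (red) are higher in both 6 h libraries, 12 genes (blue) are lower in both, and the other genes (grey) overlap between times.

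Rps14, a small-subunit protein, showed the largest difference upwards. The strongest peak in its window had fold enrichments of 14.98 and 16.04 at 0 h and 29.5 and 26.7 at 6 h, a ratio of 1.81 between the means. Both 6 h values came from a locus that had 14.5 and 16.04 at 0 h, and by rank that locus went from percentile 92.7 and 94.8 to 99.5 and 99.6. It lay 1433 bp beyond the high-coordinate end of the annotated span (chromosome 18, 60779979 to 60780731 of mm10) and overlapped an H3K27ac peak, with the summit outside. The other shared locus of Rps14, over the low-coordinate end of the span (60774232 to 60775097), had 14.98 and 15.8 at 0 h and 13.8 and 10.9 at 6 h. There both 6 h values were below both 0 h values, the reverse of the site beyond the gene.

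Rps16, also of the small subunit, was the other member that was higher, from 7.39 and 6.11 to 12.4 and 7.40, a ratio of 1.47 between the means. Its groups are parted by a narrow margin, since the second 6 h library nearly equalled the first 0 h library.

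Rpl21 had the lowest ratio among the 12 that were lower. Its values were 9.90 and 10.2 at 0 h and 4.25 and 4.82 at 6 h, a ratio of 0.451. Rps27l followed at 0.609 with the values above, and Rpl18 at 0.641. Rps28 had 11.3 and 11.5 against 9.76 and 5.44 (0.668). In Rpl21 the 6 h libraries lay close together, and in Rpl18 and Rps28 the second was far below the first. No test was run on single genes, since fold enrichments of separate lists share no scale and an exact permutation of 2 against 2 libraries cannot go below p = 0.333, so these are descriptions.

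Loci beyond the shared ones were few. The windows held 106 distinct loci, of which 85 were called in all 4 libraries, 3 only at 6 h (in both 6 h libraries and neither at 0 h), none only at 0 h and 18 in other sets, 12 of these in 1 library. Rpl31, Rplp0 and Rpl23a held the 6 h loci, 3 of 85 genes, where 6.13% of all genes had one. For a locus only at 0 h the count was 0 of 85, where 2.52% of all genes had one. Leaving out the second 6 h library gave 8 members with a locus only at 6 h, and leaving out the first gave 4 with a locus only at 0 h, as fewer lists then set the class. Without the first or the second 0 h library, 1 and 2 members had a locus only at 0 h. The shares over all genes were not counted with a library left out. The 6.13% and 2.52% are therefore no measure for these counts.

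All 3 loci lay within the gene and apart from its shared locus. In Rplp0 it was at 115562436 to 115563336 on chromosome 5, toward the far end of the gene, with 5.33 and 4.63 in the 6 h libraries and outside H3K27ac. In Rpl31 it was at 39371087 to 39371661 on chromosome 1, also near the far end and outside H3K27ac, with 7.70 and 7.41. The window of Rpl31 held another 2 loci outside H3K27ac, each in a different 6 h library. In Rpl23a it was at 78181616 to 78182295 on chromosome 11, inside H3K27ac, with 7.95 and 6.70. Rpl4 had the most loci, 5, with 4 of them in 1 library each. Each of the 3 loci was weaker than the shared locus of its gene, which had 14.02 and 5.89 at 6 h in Rplp0, 15.5 and 9.87 in Rpl31 and 11.1 and 7.67 in Rpl23a.

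Genes of the same pathway were counted in the same way. A locus in all 4 libraries was found at 25 of 33 translation factors (75.8%), 43 of 78 mitochondrial ribosomal protein genes (55.1%), 17 of 40 genes of ribosome assembly and rRNA synthesis (42.5%) and 44 of 92 nuclear genes of the respiratory chain (47.8%). All 33, 78 and 40 genes of the first 3 lists and 86 of the 92 had H3K27ac in the window, so these lists share the mark with the ribosomal protein genes. Translation factors, many of which are also TOP messenger RNAs, had the highest share of these lists. Their median ranks among shared loci were 73.2 and 57.1 at 0 h and 54.6 and 49.4 at 6 h. Eef1a1, which brings aminoacyl-tRNA to the ribosome, had fold enrichments of 14.01, 13.6, 17.5 and 13.8. Eef2, which moves the ribosome along, had 14.8, 16.6, 17.6 and 10.8. For mitochondrial ribosomal proteins, which serve the separate ribosome of mitochondria, the median ranks were 48.5, 51.4, 44.5 and 38.8. They were 54.4, 64.0, 59.1 and 50.1 for ribosome assembly and 49.75, 55.7, 40.2 and 38.7 for the respiratory chain. In ribosome assembly, Ncl, the nucleolar protein nucleolin, had 14.5, 14.6, 15.8 and 11.1, and Npm1, nucleophosmin, had 10.9, 10.01, 11.6 and 5.32. Eef1a1, Eef2 and Ncl ranked above the median of their list in every library, and Npm1 in all but the second 6 h library. These examples are thus not typical of their lists. The lists were set side by side by counts and median ranks, and no test was run on them.

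The GR lists held 9728 to 14748 peaks and the H3K27ac list 37460. All 9 granulosa marker genes had H3K27ac in the window, as did 3 of 5 theca, 2 of 6 oocyte, 2 of 5 leukocyte and 2 of 4 endothelial marker genes, and the part of other cells in the ribosomal protein loci was not tested. Since all cells transcribe these genes, the lists cannot show from which cell type a peak came.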

How the data were processed

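Peaks were used as deposited. The authors aligned reads with Bowtie2 2.4.5 to build mm10 and called peaks with MACS2, per the submitters' processing notes. No source used here gives the version of MACS2 or the control. The deposited GR lists, 1 per library, give a score, a fold enrichment (a ratio), −log10 p-values and −log10 q-values and a summit per peak. The weakest −log10 p was 9.00 to 9.10, and the H3K27ac list gives positions only. Read depth is unknown, and no source used here says how reads that match several copies, such as processed pseudogenes, were treated.

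For chromosomes 1 to 19, X and Y, peaks were set against RefSeq gene spans with Python 3.11.15, numpy 2.4.6 and scipy 1.17.1. The scripts were tested on simulated lists. Times were compared by exact permutation over libraries; no test was run over genes. Named were the 8 strongest members, those with a locus at 1 time only, those without GR or H3K27ac, those parted most by time, paralogues and members of known roles. Alternatives were the window, list length, overlap, strength measure, replicate block and each library left out. The members and lists were chosen with earlier results of these data known. The 4 other samples were not analysed here. A few genes are not reported here by name.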

Additional observations from a re-analysis of the deposited data

How the results depend on the processing

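The difference in members with a GR peak was -2.5 to 0.5 with 1 library left out, and that of the median percentile -8.85 to 0.471. The difference in members was larger with lists cut to the shortest, at -4.5 (exact permutation test, p = 0.333, the smallest possible), and -3.5 with the stronger 50%. Both differences turned positive only without the second 6 h library (0.5 members and 0.471 points). Members with a locus in all libraries ranged from 79 to 81 with 1 library left out, and from 57 (each peak covering 50% of its locus) to 80 (5 kb window) under the other settings. Members with a locus only at 6 h were 3 to 8 with 1 library left out (8 without the second 6 h library), and 1 with lists cut to the shortest or to the stronger 50%. Those with a locus only at 0 h were 0 to 4 with 1 library left out (4 when the first 6 h library was dropped, 2 for the second 0 h library and 1 for the first). They were 2 with lists cut to the shortest, 1 with the stronger 50%, 1 with loci merged across 500 bp and 2 with 50% coverage. By −log10 p, 3 members were higher and 13 lower at 6 h. H3K27ac lay at 76 members when 50% of a gene-end window had to be covered. The shares over all genes were not counted under these other settings, so these member counts show no excess or lack in the family. Replicate numbers did not pair the libraries (r = 0.03 between deviations over 5012 loci). With a replicate block the differences were -1 member and -4.34 points (exact sign-flip test over the replicate pairs, p = 1 for both). So few pairs cannot give a small p. Depth is unknown, so its part in missing peaks was not tested.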

Other observations

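Of 20 genes that control translation and growth through mTOR and Myc, 11 had a locus in all 4 libraries and all 20 had H3K27ac in the window. Over all protein-coding genes the shares were 23.9% and 56.4%. The median ranks of the 11 genes among shared loci were 66.1 and 53.2 at 0 h and 67.9 and 51.2 at 6 h. Rps6kb1, an S6 kinase that phosphorylates the product of Rps6, had fold enrichments of 14.5 and 16.3 at 0 h and 17.04 and 8.65 at 6 h. Ddit4, an inhibitor of mTOR, had 16.3 and 14.5 against 20.5 and 11.25. In both genes the times overlapped, and both ranked above the medians of the 11 genes in every library.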
